A study of Mus musculus with 16 samples.

Results

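Heat shock proteins are chaperones that keep other proteins folded, and the genes described here encode those of the cytosol and the mitochondrial matrix. The set holds 10 genes, taken from a list of symbols and matched to Ensembl identifiers, of 55401 genes in the deposited values. All 10 passed the low-value filter, as did 15808 genes in all. RNA came from hypothalamus tissue of male mice aged 3 months on a C57BL/6 background. The mice were kept in a cycle of 12 h light and 12 h dark, and killed with CO2. The groups were ASIC1a-/- at ZT13, WT at ZT13, ASIC1a-/- at ZT1 and WT at ZT1, with 4 mice in each and 1 library per mouse. ZT counts the hours from lights on, so ZT13 falls early in the dark phase and ZT1 early in the light phase. ASIC1a-/- mice lack the acid-sensing ion channel ASIC1a in all tissues, a global deletion that is not limited to the hypothalamus, and WT mice carry the channel. The comparisons asked whether transcript levels differed between the times of day, between the genotypes, and whether the time difference depended on the genotype.

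In the chaperone cycle, an HSP70 protein binds exposed hydrophobic stretches of an unfolded client, a J-domain partner of the HSP40 class delivers the client and triggers ATP hydrolysis, and an HSP110 protein exchanges the nucleotide so that the client is released. HSP90 then acts on near-native clients such as kinases and steroid hormone receptors. In mitochondria, the HSP60 chaperonin encloses a client in a chamber that is closed by HSP10. Many of these genes are activated by heat shock factor HSF1, which binds repeats of the heat shock element, an inverted arrangement of the letters GAA and TTC. In mouse liver, HSF1 activity and several heat shock transcripts are known to follow a daily cycle that runs with body temperature.

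Upstream sequences were taken from RefSeq (GRCm38.p6), which gave windows of 250 bases before and 50 after a start site for 7 of the 10 genes, in 10 windows; Hspa8, Hsp90aa1 and Hsp90ab1 were not among them. A heat shock element of 2 units was searched as GAANNTTC or TTCNNGAA, each its own reverse complement, so that both strands were covered and matches could overlap. An element of 3 units was searched as GAANNTTCNNGAA or TTCNNGAANNTTC, which contain the shorter form. The 2-unit letters were found for 5 genes (Hspa1a, Hspa1b, Hsph1, Hspd1 and Hspe1) and the 3-unit letters for 3 (Hsph1, Hspd1 and Hspe1). Of all 32851 windows in the table, 15.1% held a 2-unit match and 0.603% a 3-unit match. These are shares of windows, while the counts before them are of genes, and a gene can have several windows. The windows of Hspa1a and Hspa1b are near copies, and Hspd1 and Hspe1 were counted for the same bases. A match is a description of letters and not a measured binding site.

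The 250 bases before the start of Hspa1a (chr17:34972157-34972406, minus strand), of Hspa1b (chr17:34959239-34959488, minus strand) and of the first Dnajb1 start (chr8:83607925-83608174, plus strand) are shown because Hspa1a and Hspa1b are nearly the same gene and Dnajb1 was the gene that rose at ZT13. Capitals mark 2-unit matches.
Hspa1a: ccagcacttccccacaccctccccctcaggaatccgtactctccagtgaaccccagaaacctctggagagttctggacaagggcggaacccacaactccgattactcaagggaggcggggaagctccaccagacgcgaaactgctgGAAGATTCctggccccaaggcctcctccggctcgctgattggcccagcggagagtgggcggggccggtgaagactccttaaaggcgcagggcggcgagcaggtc
Hspa1b: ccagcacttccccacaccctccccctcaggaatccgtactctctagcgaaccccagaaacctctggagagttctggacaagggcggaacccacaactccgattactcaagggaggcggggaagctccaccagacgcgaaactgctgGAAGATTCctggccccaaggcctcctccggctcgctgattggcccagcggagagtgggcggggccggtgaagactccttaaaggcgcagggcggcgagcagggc
Dnajb1: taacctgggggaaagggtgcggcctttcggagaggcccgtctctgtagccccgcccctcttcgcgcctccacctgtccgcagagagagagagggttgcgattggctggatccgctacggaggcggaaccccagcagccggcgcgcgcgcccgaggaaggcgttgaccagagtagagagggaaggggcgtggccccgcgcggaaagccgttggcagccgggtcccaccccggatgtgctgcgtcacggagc

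The Hspa1a and Hspa1b windows differ at 3 of 250 positions and hold the same single 2-unit match, 96 bases from the start. The Dnajb1 windows hold no match to these letters. Shorter stretches of 30 bases are shown for Hsph1, which fell at ZT13 in both genotypes, and for Hspe1, because these overlap exons that GENCODE annotates as untranslated sequence. For Hsph1 this is its own untranslated sequence, and for Hspe1 it is that of Hspd1. The stretches are the upstream match of Hsph1 (chr5:149636351-149636380, minus strand), its 3-unit match downstream of the start (chr5:149636287-149636316, minus strand) and the 2 overlapping 3-unit matches before Hspe1 (chr1:55088053-55088082, plus strand), with the matched letters in capitals.
Hsph1 upstream: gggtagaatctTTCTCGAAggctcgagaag
Hsph1 downstream: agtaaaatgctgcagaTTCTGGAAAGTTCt
Hspe1 upstream: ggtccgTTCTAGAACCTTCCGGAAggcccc

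The capitals before Hspe1 cover 18 bases, which hold 2 overlapping 3-unit matches. The same bases lie upstream of one of the 2 RefSeq starts of Hspd1, on the opposite strand. They lie downstream of the other Hspd1 start, beyond its window, which holds no match. The 5′ ends of their transcripts overlap on opposite strands, and the sources used here do not say that reads were counted by strand, so reads from the overlap cannot be told apart between the genes.

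At ZT13, transcripts of the abundant cytosolic chaperones were lower than at ZT1 in both genotypes, while Dnajb1, an HSP40, was higher. The sizes were modest: Hsph1 fell by 15.5% in ASIC1a-/- mice and fell by 15.1% in WT mice, and Hsp90ab1 fell by 7.69% in ASIC1a-/- mice and fell by 6.90% in WT mice. In ASIC1a-/- mice, 6 of the 10 genes fell and 1 rose at an adjusted p under 0.05, against 11.3% of all tested genes in either direction (4.62% lower and 6.72% higher). In WT mice, 5 fell and 1 rose, against 13.3% of all tested genes (5.76% lower and 7.52% higher). Averaged over genotypes, 6 fell and 1 rose, against 26.4% of all genes (12.1% lower and 14.3% higher). No gene of the set was called between genotypes at either time or in the interaction of genotype and time. The median log2 fold change of the 10 genes at ZT13 against ZT1 was -0.11 in ASIC1a-/- mice, -0.09 in WT mice and -0.11 averaged over genotypes, where the median of all 15808 genes was -0.0064, -0.0027 and -0.0049. Abundant genes are tested with little counting error, so the same was computed for the 2355 genes with a mean of at least 100 CPM. Of these, 18.6% were lower and 11.6% higher at ZT13 averaged over genotypes, with a median log2 fold change of -0.0147. The shares were 6.88% lower and 5.73% higher in ASIC1a-/- mice, and 9.89% lower and 6.28% higher in WT mice. Hspa1a, Hspa1b, Dnajb1 and Hspe1 lie below 100 CPM, so the counts of the 10 genes are not matched to these shares in level.

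Libraries held 34888522 to 42326259 expected counts (median 35750448). Values between libraries are given as CPM, counts scaled to the library size with TMM factors, and levels between genes as TPM, which also divides by transcript length. A log2 fold change is given with its standard error (SE) and the Benjamini-Hochberg adjusted p of edgeR's quasi-likelihood test over all tested genes. Asic1, the targeted gene, was at 67.4 ± 2.41 to 71.0 ± 0.807 CPM in the ASIC1a-/- groups and at 99.2 ± 2.20 to 104 ± 1.98 CPM in the WT groups (SD, n = 4 each), with no overlap of libraries. Hypothalamic peptide genes were measured in every library, at unlike levels. Pmch was at 727 to 1180 CPM, Hcrt at 82.1 to 160 CPM and Pomc at 33.8 to 59.8 CPM. Avp was at 23.1 to 45.4 CPM, Oxt at 6.78 to 17.1 CPM and Agrp at 2.18 to 4.55 CPM. The summed level of 6 meningeal markers was 290 CPM in ASIC1a-/- ZT1 replicate 4 and 138 CPM in ASIC1a-/- ZT13 replicate 2, against 32.6 to 79.3 CPM in the other 14 libraries. Of the 4 anterior pituitary markers tested of 6, 0 were called at ZT13 against ZT1 in ASIC1a-/- mice, while Prl, Gh and Cga rose in WT mice, and Tshb and Lhb were under the low-value filter. The summed level of the 4 was 40.98 to 59.4 CPM at ZT13 and 50.7 to 67.9 CPM at ZT1 in ASIC1a-/- mice, and 39.6 to 94.75 CPM at ZT13 and 41.2 to 53.9 CPM at ZT1 in WT mice. Pomc, at 33.8 to 59.8 CPM, is 1 of the 4, so the sum is not a measure of Prl, Gh and Cga alone. The median log2 fold change of the 4 at ZT13 against ZT1 was -0.81 in ASIC1a-/- mice and 3.38 in WT mice. Averaged over genotypes, 12.1% of all genes were lower and 14.3% higher at ZT13. Of the markers, 2 of 5 microglial, 2 of 5 oligodendrocyte, 1 of 5 astrocyte and 1 of 11 hypothalamic neuron genes fell. Of 5 endothelial markers, 2 rose and 1 fell, and 1 of the 4 pituitary markers rose. The microglial sum was 158 to 165 CPM at ZT13 and 171.5 to 186 CPM at ZT1 in ASIC1a-/- mice, and 151 to 161 CPM at ZT13 and 163 to 172 CPM at ZT1 in WT mice. The oligodendrocyte sum overlapped between the times, at 4504 to 5000 CPM at ZT13 and 4404 to 5889 CPM at ZT1 in ASIC1a-/- mice, and 4207 to 4996 CPM at ZT13 and 4659 to 4791 CPM at ZT1 in WT mice. The part of these markers in the differences between times was not tested. The values come from bulk tissue, in which fewer cells of a type and less RNA per cell cannot be told apart.

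By TPM the 10 genes covered a wide range of levels. Hspa8 was at a mean of 4318 TPM over the 16 libraries (rank 13 of all genes), Hsp90aa1 at 1619 TPM (rank 34) and Hsp90ab1 at 1287 TPM (rank 46). Hsph1 followed at 293.5 TPM, Hspd1 at 214 TPM, Hspe1 at 163.6 TPM and Hspa4l at 110.4 TPM. Dnajb1 was at 47.1 TPM, Hspa1a at 8.92 TPM (rank 10436) and Hspa1b at 5.17 TPM (rank 11939). The constitutive Hspa8 thus stood far above the stress-inducible HSP70 pair. In this order, the ranges of neighbouring genes over the 16 libraries did not overlap, except those of Hspa1a (6.37 to 14.96 TPM) and Hspa1b (3.29 to 10.6 TPM). Within each library, Hspa1a was above Hspa1b. The order by TPM depends on the length that RSEM assigned. This was 1271 to 1281 bp over the group means of Hspa8, whose longest coding transcript has 2394 bp. For Hsp90aa1 it was 1931 to 1967 bp (longest 3281 bp), and for Hsp90ab1 2501 to 2505 bp (longest 2520 bp). By CPM the HSP90 order was the reverse in each group, with group means of 1416 to 1622 CPM for Hsp90aa1 and 1512 to 1638 CPM for Hsp90ab1.

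**Figure D1:**
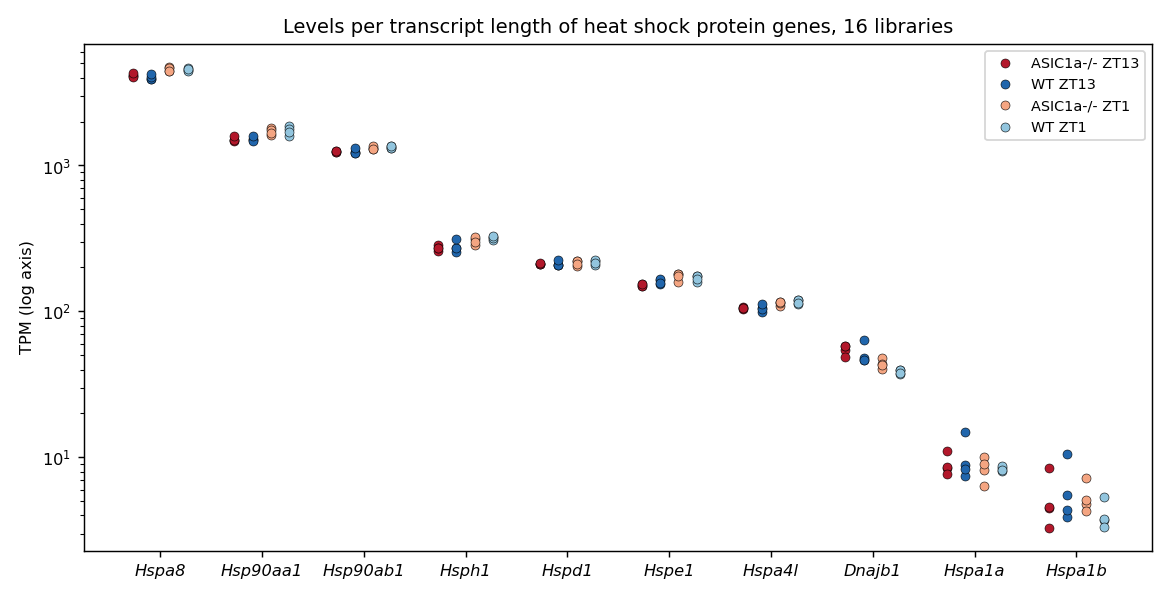
TPM (log axis) of the 10 heat shock protein genes in each of the 16 libraries, ordered by mean level and coloured by group. Hspa8 lies at 3913 to 4726 TPM in every library and Hspa1b at 3.29 to 10.6 TPM, a span far larger than the differences between groups. Neighbouring genes can lie much closer, such as Hsp90aa1 (mean 1619 TPM) and Hsp90ab1 (mean 1287 TPM), whose group means by CPM are in the opposite order.

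Hspa8 encodes HSC70, the HSP70 made in all cells without stress, which folds new proteins and uncoats clathrin vesicles. It lies on chr9:40800984-40810087 (plus strand, ENSMUSG00000015656), and its longest coding transcript has 9 exons. It was at 2392, 2365, 2359 and 2526 CPM in ASIC1a-/- mice at ZT13 and at 2607, 2883, 2667 and 2640 CPM in ASIC1a-/- mice at ZT1. WT mice had 2338, 2360, 2370 and 2404 CPM at ZT13 and 2671, 2709, 2551 and 2661 CPM at ZT1. All 8 libraries at ZT13 lay below all 8 at ZT1, an arrangement in this direction shown by 2.45% of all genes. Within ASIC1a-/- mice 5 of the 10 genes had all ZT13 libraries below all ZT1 libraries (6.89% of all genes, and 15.7% in either direction), and within WT mice 5 were separated this way (8.68% of all genes, and 18.3% in either direction). Hspa8 fell by 0.16 on the log2 scale (SE 0.0298, adjusted p = 0.00189, edgeR) in ASIC1a-/- mice and fell by 0.16 (SE 0.0298, adjusted p = 0.00185) in WT mice.

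Hsp90aa1 encodes the inducible and Hsp90ab1 the constitutive HSP90 of the cytosol. Hsp90aa1 (chr12:110690605-110702728, minus strand, ENSMUSG00000021270) was at 1404, 1383, 1372 and 1513 CPM in ASIC1a-/- mice at ZT13, against 1526, 1708, 1614 and 1571 CPM at ZT1. In WT mice it was at 1418, 1422, 1393 and 1431 CPM at ZT13, against 1721, 1654, 1516 and 1597 CPM at ZT1. The highest library at ZT13 was just below the lowest at ZT1, so the times did not overlap. On the log2 scale Hsp90aa1 fell by 0.18 (SE 0.0388, adjusted p = 0.00645, edgeR) in ASIC1a-/- mice and fell by 0.20 (SE 0.0388, adjusted p = 0.00291) in WT mice.

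Hsp90ab1 (chr17:45567775-45573271, minus strand, ENSMUSG00000023944) was at 1506, 1494, 1489 and 1559 CPM in ASIC1a-/- mice at ZT13, against 1603, 1680, 1653 and 1616 CPM at ZT1. WT mice had 1509, 1509, 1487 and 1554 CPM at ZT13, against 1623, 1645, 1586 and 1654 CPM at ZT1. Here too all 8 libraries at ZT13 lay below all 8 at ZT1. The log2 fold change was -0.12 (SE 0.0222, adjusted p = 0.00278, edgeR) in ASIC1a-/- mice and -0.10 (SE 0.0222, adjusted p = 0.00524) in WT mice. On the log2(TPM + 1) scale the ASIC1a-/- value was -0.08 and did not pass (limma, adjusted p = 0.101). The estimate was larger for Hsp90aa1 than for Hsp90ab1 in both genotypes, and the difference between the genes was not tested.

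Hsph1 and Hspa4l encode HSP110 proteins, which serve HSP70 as nucleotide exchange factors. Hsph1 (HSP105; chr5:149614287-149636376, minus strand, ENSMUSG00000029657) was at 361, 387, 375 and 387 CPM in ASIC1a-/- mice at ZT13, against 414, 470, 467 and 436 CPM at ZT1. In WT mice it was at 382, 370, 362 and 417 CPM at ZT13, against 453, 461, 429 and 460 CPM at ZT1. Within each genotype the times did not overlap, but the highest ZT13 library, WT replicate 4, was above the lowest ZT1 library, ASIC1a-/- replicate 1. The log2 fold change was -0.24 in both, with SE 0.0443 and adjusted p = 0.00193 (edgeR) in ASIC1a-/- mice and SE 0.0444 and adjusted p = 0.00208 in WT mice, the largest decrease in the set. The transcript length that RSEM assigned to Hsph1 was 2845 ± 5.46 bp at ZT13 and 2931 ± 6.47 bp at ZT1 in ASIC1a-/- mice, and 2822 ± 78.5 bp and 2870 ± 82.3 bp in WT mice (SD, n = 4 each). On the log2(TPM + 1) scale, which divides by this length, Hsph1 fell by 0.16 in ASIC1a-/- mice and did not pass (limma, adjusted p = 0.0937).

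Hspa4l (chr3:40744495-40796103, plus strand, ENSMUSG00000025757), best known from testis and kidney, was at 275, 267, 282 and 291 CPM in ASIC1a-/- mice at ZT13, against 291, 314, 290 and 304 CPM at ZT1. WT mice had 280, 277, 280 and 279 CPM at ZT13, against 315, 305, 287 and 295 CPM at ZT1. The ASIC1a-/- times overlapped by a single library on each side, and the WT times did not overlap. For Hspa4l the log2 fold change was -0.11 (SE 0.0322, adjusted p = 0.0423, edgeR) in ASIC1a-/- mice and -0.11 (SE 0.0322, adjusted p = 0.0326) in WT mice. Both calls were close to the threshold and were lost when single libraries were left out, and the ASIC1a-/- call also on the log2(TPM + 1) scale (limma, adjusted p = 0.107), whereas the value averaged over genotypes, -0.11 (SE 0.0228, adjusted p = 0.00214), passed under every alternative.

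Dnajb1 encodes HSP40, the J-domain protein that delivers clients to HSP70 and is itself inducible by stress. It lies on chr8:83608193-83612653 (plus strand, ENSMUSG00000005483, 3 exons). It was at 79.2, 82.8, 70.1 and 85.6 CPM in ASIC1a-/- mice at ZT13, against 59.7, 73.3, 63.3 and 63.6 CPM at ZT1. In WT mice it was at 69.0, 72.1, 67.9 and 89.7 CPM at ZT13, against 58.3, 58.5, 53.2 and 55.4 CPM at ZT1. The WT times did not overlap, and in ASIC1a-/- mice ZT1 replicate 2 exceeded ZT13 replicate 3. Dnajb1 rose by 0.29 on the log2 scale (SE 0.0809, adjusted p = 0.0280, edgeR) in ASIC1a-/- mice and by 0.41 (SE 0.0818, adjusted p = 0.00322) in WT mice. It was the only gene of the 10 that was called higher at ZT13, and its change was opposite in sign to that of Hspa8, Hsph1 and both HSP90 genes. The ASIC1a-/- call did not hold without ASIC1a-/- ZT1 replicate 1, 3 or 4 or ASIC1a-/- ZT13 replicate 1, 2 or 4 (log2 fold changes of 0.25 to 0.35 over the 16 omissions), and the WT value without WT ZT13 replicate 4, its highest library, was 0.31.

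Hspa1a and Hspa1b encode the stress-inducible HSP70 and lie 9951 bp apart on chromosome 17 (Hspa1a at chr17:34969190-34972156, ENSMUSG00000091971, and Hspa1b at chr17:34956436-34959238, ENSMUSG00000090877, both minus strand). Each is a single exon, of 2967 and 2803 bp. Their transcripts are near copies, and 47.1% of all stretches of 100 bases in the Hspa1a transcript occur unchanged in Hspa1b. RSEM divides such reads by estimation, so the split between both genes is uncertain, with a posterior SD of up to 3.25% of the Hspa1a count and 6.46% of the Hspa1b count. Hspa1a was at 12.2, 15.9, 12.5 and 11.3 CPM in ASIC1a-/- mice at ZT13, against 12.1, 15.5, 13.1 and 9.49 CPM at ZT1. WT mice had 11.03, 13.3, 12.2 and 21.2 CPM at ZT13, against 12.4, 11.8, 12.7 and 11.97 CPM at ZT1. WT ZT13 replicate 4 stood apart from the other 15 libraries, and otherwise the times overlapped. For Hspa1a the log2 fold change was 0.05 (SE 0.169, adjusted p = 0.891, edgeR) in ASIC1a-/- mice and 0.24 (SE 0.168, adjusted p = 0.386) in WT mice, where it was -0.0028 without WT ZT13 replicate 4.

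Hspa1b was at 6.13, 11.4, 4.48 and 6.32 CPM in ASIC1a-/- mice at ZT13, against 6.63, 10.4, 6.96 and 6.00 CPM at ZT1. In WT mice it was at 5.43, 7.73, 5.95 and 14.1 CPM at ZT13, against 5.17, 7.31, 5.12 and 4.56 CPM at ZT1. ASIC1a-/- ZT13 replicate 2, ASIC1a-/- ZT1 replicate 2 and WT ZT13 replicate 4 were the 3 high libraries, from 3 different groups. For Hspa1b the log2 fold change was -0.09 (95% interval -0.70 to 0.52, adjusted p = 0.880, edgeR) in ASIC1a-/- mice and 0.58 (-0.04 to 1.21, adjusted p = 0.214) in WT mice, 0.20 without WT ZT13 replicate 4. The summed counts of both genes, which do not depend on the split, were at 20.0 ± 4.83 CPM in ASIC1a-/- mice at ZT13, against 20.0 ± 4.32 CPM at ZT1, and at 22.7 ± 8.57 CPM in WT mice at ZT13, against 17.7 ± 1.06 CPM at ZT1 (SD, n = 4 each). Their log2 fold change was -0.0027 (SE 0.203, adjusted p = 0.995) in ASIC1a-/- mice and 0.36 (SE 0.204, adjusted p = 0.275) in WT mice. The intervals of this pair are wide, and differences of the size seen for the other genes were not detectable here.

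**Figure D2:**
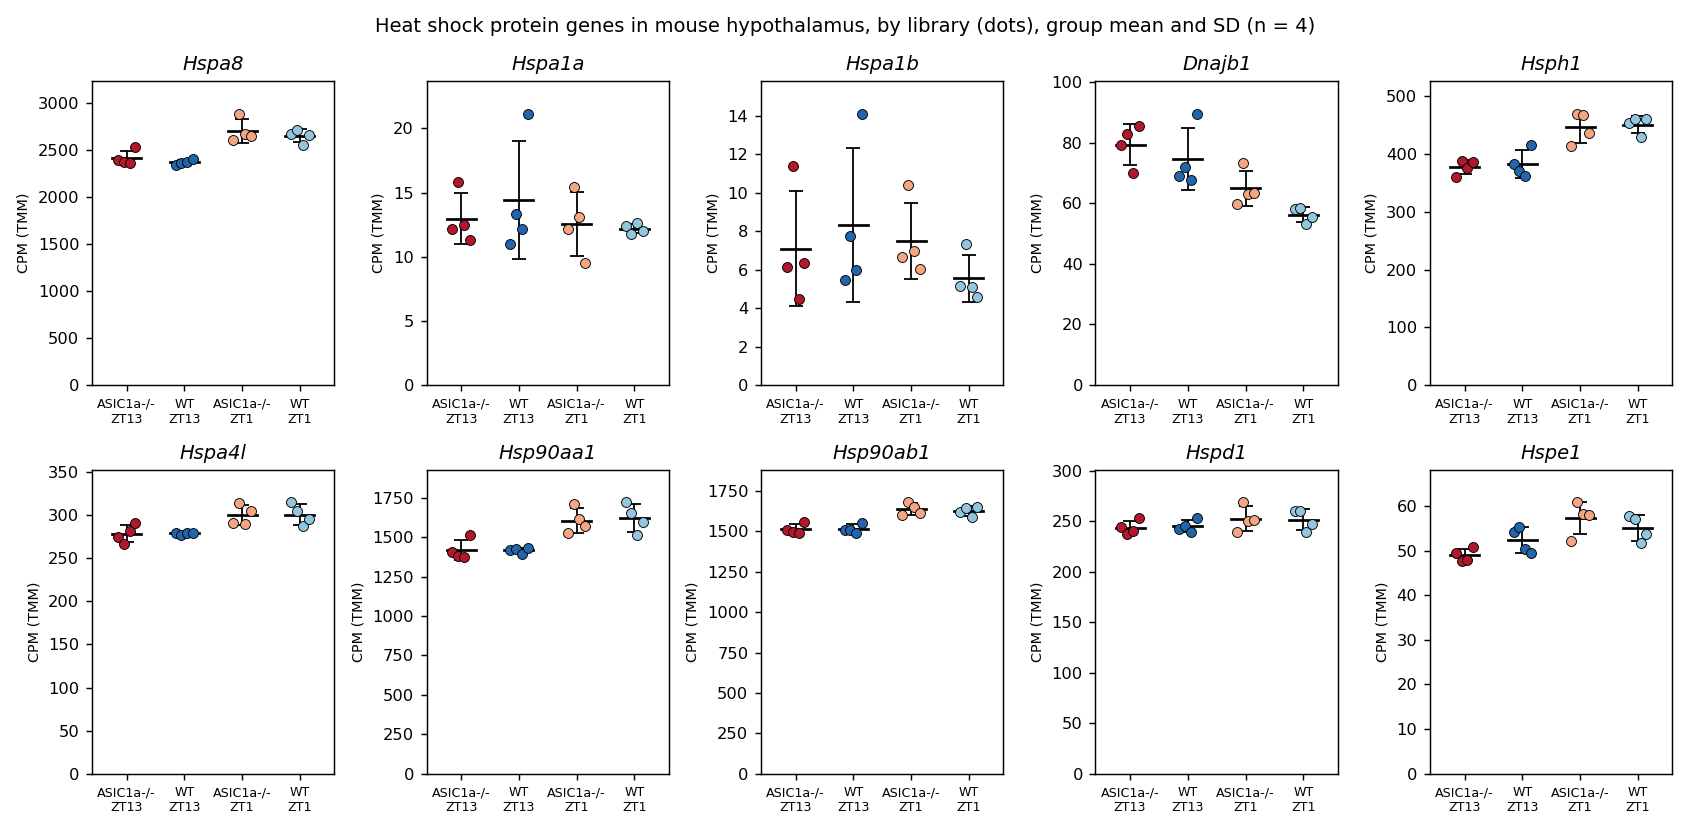
TMM-normalized CPM of each heat shock protein gene with 1 dot per library, a dash at the mean of the 4 mice of a group, error bars of 1 SD, and every axis starting at 0. Hspa8, Hsp90aa1 and Hsp90ab1 are lower in all 8 libraries at ZT13 than in all 8 at ZT1, Dnajb1 is higher at ZT13 on average, and Hspa1a and Hspa1b have 1 to 3 libraries far above the rest.

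Hspd1 and Hspe1 encode HSP60 and HSP10, the chaperonin of the mitochondrial matrix and its lid, from adjoining positions on chromosome 1. Hspd1 (chr1:55077835-55088243, minus strand, ENSMUSG00000025980, 12 exons) was at 245, 237, 241 and 253 CPM in ASIC1a-/- mice at ZT13, against 239, 269, 251 and 252 CPM at ZT1. WT mice had 243, 245, 239 and 253 CPM at ZT13, against 260, 260, 240 and 247 CPM at ZT1. The times overlapped in both genotypes, and the log2 fold change was -0.05 (95% interval -0.12 to 0.02, adjusted p = 0.368, edgeR) in ASIC1a-/- mice and -0.04 (-0.11 to 0.03, adjusted p = 0.519) in WT mice. A decrease of the size of Hspa8 or Hsph1 lies outside these intervals.

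Hspe1 (chr1:55088132-55091307, plus strand, ENSMUSG00000073676, 4 exons) was at 49.5, 47.7, 47.9 and 50.7 CPM in ASIC1a-/- mice at ZT13, against 52.2, 60.8, 58.3 and 58.0 CPM at ZT1, with no overlap. WT mice had 54.3, 55.3, 50.3 and 49.4 CPM at ZT13, against 57.7, 57.0, 51.7 and 53.7 CPM at ZT1, with overlap. Hspe1 fell by 0.23 on the log2 scale (SE 0.0494, adjusted p = 0.00634, edgeR) in ASIC1a-/- mice, and the value in WT mice was -0.07 (SE 0.0494, adjusted p = 0.369). The difference between these 2 effects was -0.15 (95% interval -0.30 to -0.01, unadjusted p = 0.0402), which did not pass after adjustment over all genes (adjusted p = 1.00), so the time effect of Hspe1 was not shown to depend on the genotype. Hspd1 was called in neither genotype.

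**Figure D3:**
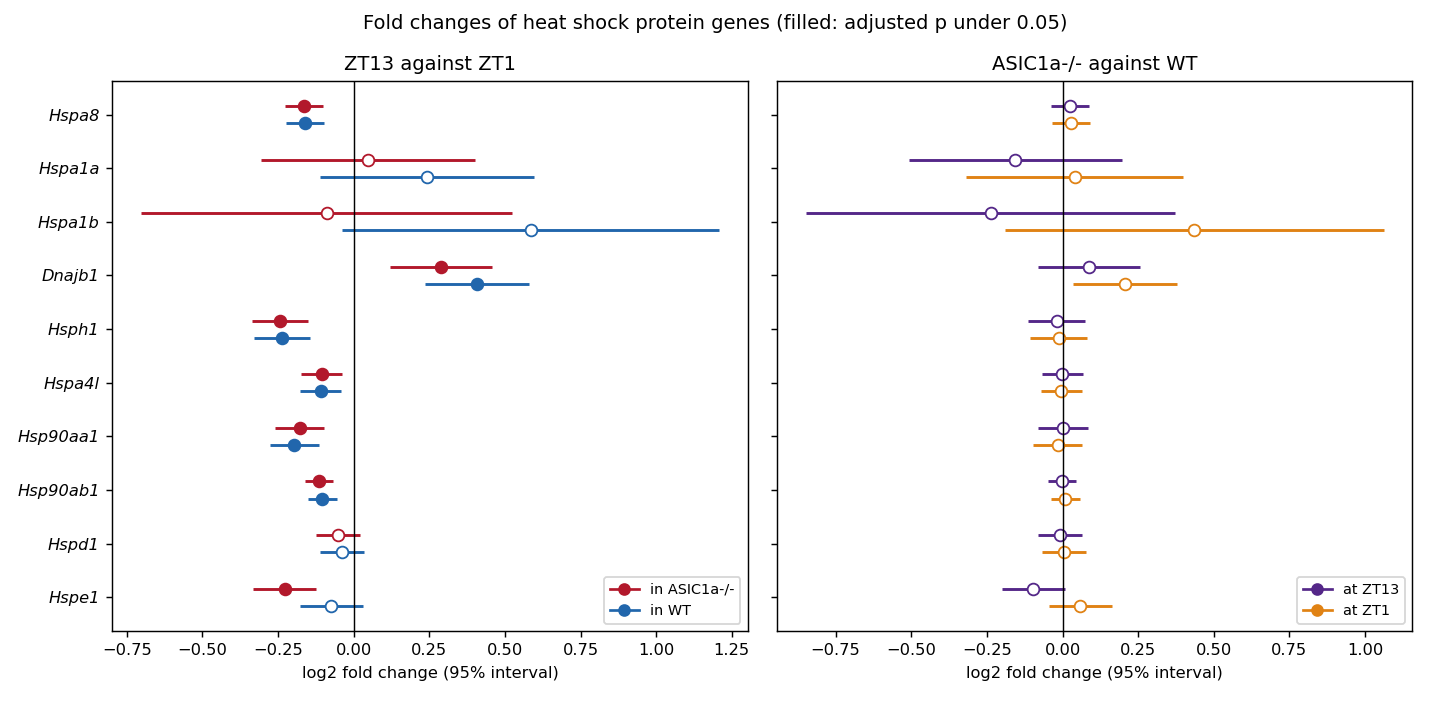
Log2 fold changes with 95% intervals for each heat shock protein gene, at left ZT13 against ZT1 in ASIC1a-/- (red) and WT (blue) mice and at right ASIC1a-/- against WT at ZT13 (purple) and ZT1 (orange); filled points passed an adjusted p under 0.05. At left, Hsph1 is lowest at -0.24 in both genotypes and Dnajb1 is the filled point above 0, and at right no point is filled.

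Between genotypes, transcripts of the 10 genes were close to each other in most cases. At ZT13, 0 of the 10 genes were called in ASIC1a-/- against WT mice, against 0.101% of all tested genes (16 genes), and 0 had an unadjusted p under 0.05 (591 genes in all). The libraries of both genotypes overlapped for all 10, where 2.58% of all genes were separated. The log2 fold change was 0.03 (95% interval -0.04 to 0.09) for Hspa8, -0.02 (-0.11 to 0.07) for Hsph1, 0.0020 (-0.08 to 0.08) for Hsp90aa1 and -0.0028 (-0.05 to 0.04) for Hsp90ab1. These intervals leave out changes of the size seen between the times of day for the same genes. For Hspe1 the value was -0.10 (-0.20 to 0.01) and for Dnajb1 0.09 (-0.08 to 0.26). The Dnajb1 value was 0.05 without WT ZT13 replicate 3 and 0.19 without WT ZT13 replicate 4, the lowest and highest of the 16 omissions. For Hspa1a and Hspa1b it was -0.16 (-0.51 to 0.20) and -0.24 (-0.85 to 0.37), intervals too wide to leave out a decrease of the size of the time difference of Dnajb1. Without WT ZT13 replicate 4 these values were 0.09 for Hspa1a and 0.15 for Hspa1b.

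At ZT1, 0 of the 10 genes were called, against 0.0127% of all tested genes (2 genes), and 1 had an unadjusted p under 0.05 (1107 genes in all). This was Dnajb1, which averaged 64.96 ± 5.85 CPM across ASIC1a-/- mice, against 56.3 ± 2.54 CPM across WT mice (SD, n = 4 each). The estimate on the log2 scale was 0.21 (SE 0.0821, unadjusted p = 0.0221, adjusted p = 0.680, edgeR). All 4 ASIC1a-/- libraries were above all 4 WT libraries, an arrangement in either direction shown by 2.92% of all genes at ZT1. The value was 0.14 to 0.24 when single libraries were left out. The log2 fold changes of Hspa8 (0.03, 95% interval -0.03 to 0.09), Hsph1 (-0.01, -0.11 to 0.08) and Hspd1 (0.0052, -0.07 to 0.08) lay around 0. That of Hspa1b was 0.44 (-0.19 to 1.06), and 0.24 to 0.60 when single libraries were left out.

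In the interaction, 0 of the 10 genes were called, against 0.0190% of all genes (3 genes), and Hspe1 alone had an unadjusted p under 0.05 (618 genes in all). The difference between the time effects in ASIC1a-/- and WT mice was -0.0021 (95% interval -0.09 to 0.09) for Hspa8, -0.0065 (-0.14 to 0.13) for Hsph1, -0.01 (-0.08 to 0.05) for Hsp90ab1 and -0.12 (-0.36 to 0.12) for Dnajb1, for which it was -0.02 without WT ZT13 replicate 4. DESeq2 and limma-voom also called 0 of the 10 genes between genotypes at either time and in the interaction. The same mice differed by genotype at ZT13 in Egr1, an immediate early gene, which averaged 63.5 ± 5.95 CPM in ASIC1a-/- mice, against 26.4 ± 2.41 CPM in WT mice (SD, n = 4 each).

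Other chaperone genes were counted in lists that cover the partners of the 10 genes, for ZT13 against ZT1 averaged over genotypes, where 12.1% of all genes were lower and 14.3% higher. Of 17 co-chaperones of HSP70 and HSP90, 11 fell and 0 rose, with a median log2 fold change of -0.08. Stip1, which links HSP70 to HSP90, fell by 0.28 (SE 0.0264, adjusted p = 9.68e-07, edgeR). Stip1 averaged 247 ± 9.88 CPM (ASIC1a-/-) and 241 ± 4.54 CPM (WT) at ZT13, against 297 ± 17.3 CPM (ASIC1a-/-) and 294 ± 9.83 CPM (WT) at ZT1 (SD, n = 4 each). Ahsa1, the activator of the HSP90 ATPase, fell by 0.17 (SE 0.0217, adjusted p = 2.00e-05), and St13, an HSP70-interacting protein, by 0.13. In the separate genotypes, 5 of the 17 fell in ASIC1a-/- mice, where 4.62% of all genes did, and 3 in WT mice, where 5.76% did.

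Of 15 chaperones and stress genes of the endoplasmic reticulum, 9 fell and 1 rose. Calr, a lectin chaperone, fell by 0.32 (SE 0.0202, adjusted p = 6.14e-09, edgeR), Hsp90b1, the HSP90 of this compartment, by 0.25 and Pdia6, a disulfide isomerase, by 0.19. Herpud1, which serves protein degradation from this compartment, rose by 0.17. Of 8 subunits of the cytosolic chaperonin CCT, 4 fell and 0 rose, the lowest being Cct7 at -0.11. Among the 4 small heat shock proteins that could be tested of 7, Hspb1 fell by 0.41 (SE 0.134, adjusted p = 0.0315) with group means of 2.86 to 4.32 CPM, and Cryab fell by 0.18.

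Lists of the same protein classes as Hspa8 and Dnajb1 were mixed. Of 6 other HSP70 and HSP110 genes tested, Hspa2 rose by 0.24 (adjusted p = 2.18e-04, edgeR) and Hspa14 by 0.12, and Hspa4 fell by 0.08. Of 11 other HSP40 genes of cytosol and nucleus, Dnajb5 rose by 0.22 (adjusted p = 7.83e-05), while Dnajb2, a neuronal J-domain protein, fell by 0.18 (adjusted p = 8.21e-06), and Dnajb6 and Dnaja2 also fell. Of 10 other mitochondrial chaperones and proteases, 2 rose (Grpel2 by 0.17 and Lonp1 by 0.09) and 2 fell (Clpp and Clpx). Of the heat shock factors, Hsf2 rose by 0.18 (adjusted p = 0.00100), and Hsf1, the main stress-responsive factor, was at a log2 fold change of -0.12 (adjusted p = 0.0551).

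Both cold-inducible RNA-binding protein genes, whose transcripts are known to increase when temperature falls, rose at ZT13. The paper reports that mice of both genotypes were warmer in the dark phase than in the light phase. Whether temperature had a part in these transcript levels was not tested. Rbm3 averaged 93.6 ± 5.63 CPM (ASIC1a-/-) and 95.9 ± 5.26 CPM (WT) at ZT13, against 54.99 ± 6.30 CPM (ASIC1a-/-) and 53.9 ± 1.57 CPM (WT) at ZT1 (SD, n = 4 each), and it rose by 0.80 on the log2 scale (adjusted p = 1.11e-09, edgeR). Cirbp rose by 0.27 (adjusted p = 1.02e-04). No gene of these chaperone and cold-inducible lists was called between genotypes at either time or in the interaction. The lists were chosen with earlier results of these data known, and their counts are given as descriptions.

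**Figure D4:**
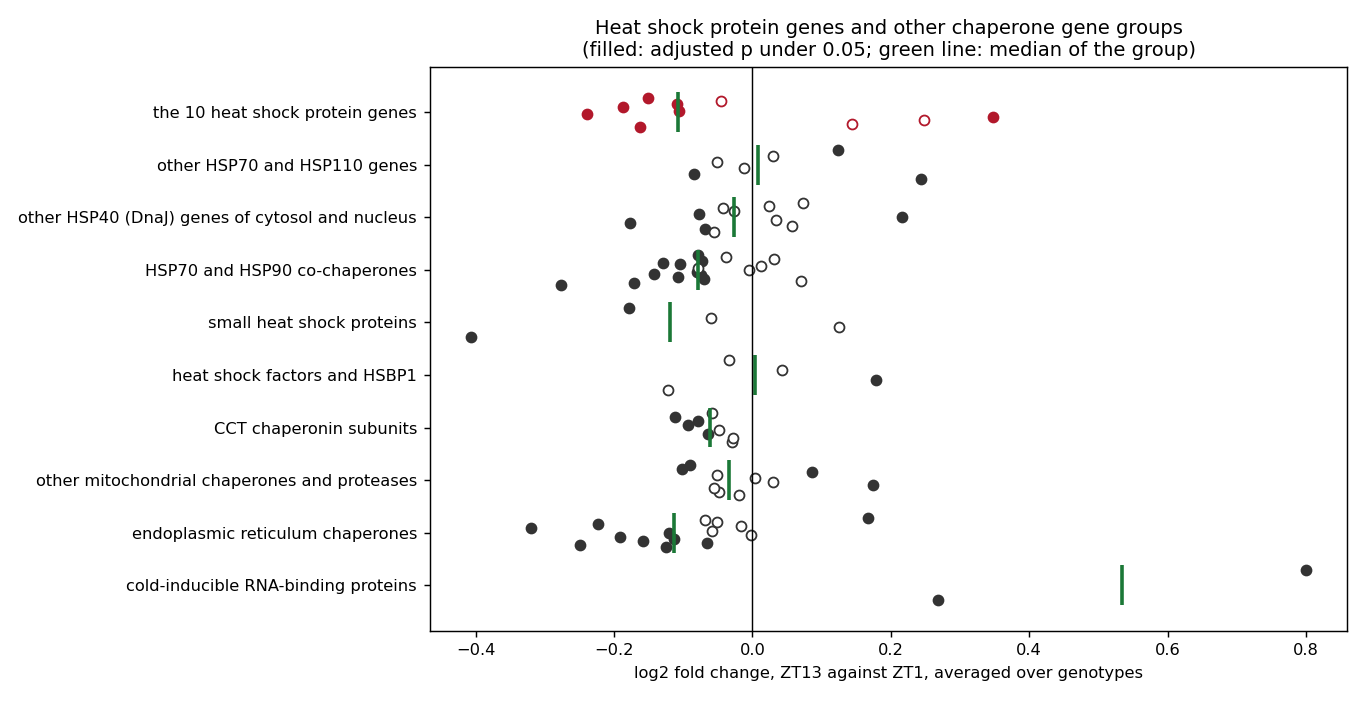
Log2 fold change of ZT13 against ZT1, averaged over genotypes, for the 10 heat shock protein genes (red) and the genes of 9 related lists (black); filled points passed an adjusted p under 0.05 and the green line is the median of a list. All called co-chaperones lie below 0, the 10 heat shock protein genes have 6 filled points below and 1 above 0, and Rbm3 lies farthest to the right at 0.80.

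Within groups, about as many pairs of these genes passed a test of correlation from mouse to mouse as did not. The deviation of log2 CPM from the group mean was correlated for each of the 45 pairs of genes over the 16 libraries, with 100000 permutations within groups and adjustment over the 45 pairs; these relations were chosen after the values were seen. Of the 45, 23 passed an adjusted p under 0.05 by Pearson's r and 21 by Spearman's rho. Pearson's r ran down to -0.243, for Hspa1a with Hspe1, with a median over the 45 pairs of 0.607, where the median over all pairs of the 2355 genes with a mean of at least 100 CPM was 0.084. These sets are not alike in level, as Hspa1a, Hspa1b, Dnajb1 and Hspe1 were below 100 CPM in every library. The 45 pairs also include Hspa1a with Hspa1b, between which RSEM divides reads, and Hspd1 with Hspe1, whose transcripts overlap. The closest was Hsp90aa1 with Hspd1 (r = 0.913, permutation p = 5e-05, adjusted 0.00225; rho = 0.909, permutation p = 7e-05, adjusted 0.00315; r = 0.878 without the 2 libraries farthest from the median). Hspa1b and Dnajb1 also varied together (r = 0.830, permutation p = 0.00272, adjusted 0.00874; rho = 0.791, permutation p = 0.0013, adjusted 0.00777; r = 0.792 without the 2 farthest libraries). For Hspd1 and Hspe1, which share their start region, r was 0.703 (permutation p = 0.0156, adjusted 0.0334) and rho 0.712 (permutation p = 0.00717, adjusted 0.0215), with r = 0.535 without the 2 farthest libraries. Genes of a library share its depth, its scaling and its dissection, and the part of these in the relations was not tested.

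The libraries that set the inducible genes apart were not those of a single group. WT ZT13 replicate 4 was above its group mean by 0.87 on the log2 scale for Hspa1b, 0.60 for Hspa1a, 0.27 for Dnajb1 and 0.12 for Hsph1. ASIC1a-/- ZT1 replicate 2 was above its group mean by 0.50 for Hspa1b, 0.32 for Hspa1a and 0.18 for Dnajb1, and its deviations for the other 7 genes were 0.04 to 0.10. ASIC1a-/- ZT13 replicate 2 was above its group mean by 0.77 for Hspa1b and 0.30 for Hspa1a, but below it for Hspa8 (-0.03), Hsp90aa1 (-0.04) and Hspd1 (-0.04). This last library is also one of the 2 with high meningeal markers, and the other, ASIC1a-/- ZT1 replicate 4, was below its group mean for Hspa1a (-0.38) and Hspa1b (-0.28). Without both libraries, 5 genes fell and 0 rose in ASIC1a-/- mice (Hspa4l and Dnajb1 were no longer called), against 2.75% of all genes lower and 4.05% higher in the same fit. Averaged over genotypes, 6 fell and 1 rose without both libraries, against 10.6% of all genes lower and 12.5% higher.

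**Figure D5:**
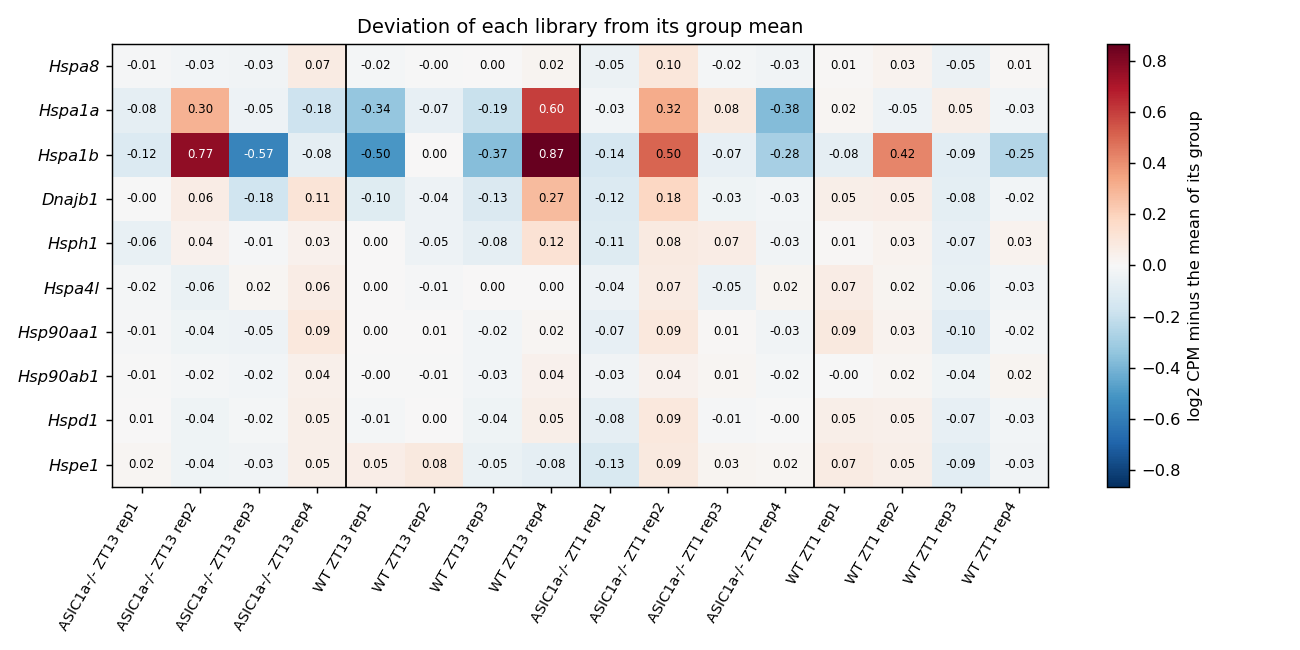
Deviation of each library from its group mean, in log2 CPM, for the 10 heat shock protein genes (rows) in the 16 libraries (columns, groups divided by black lines). WT ZT13 replicate 4 reaches 0.87 for Hspa1b and 0.60 for Hspa1a. Hspa8, Hsp90aa1, Hsp90ab1, Hspa4l and Hspd1 stay within 0.10 of the group mean in every library.

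The genes whose profile over the 16 libraries was most like that of Hsph1, among 12074 other genes with a mean of at least 5 CPM, were Mlec (r = 0.942), Dpp8 (0.941), Pdia6 (0.940), Calr (0.937) and Xpo1 (0.936). These profiles contain the difference between the times, and all 5 were lower at ZT13. With the group means removed, the most alike were AC121821.1 (r = 0.916), Creld2 (0.872), Fgf2 (0.855), Uba6 (0.855) and Slc5a3 (0.853), none of them in the first group. They are the highest of many correlations and are given as a description.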

How the data were processed

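The deposited values were RSEM expected counts, TPM, transcript length and a posterior SD of the count for each Ensembl gene in 16 libraries. The authors trimmed reads with cutadapt 1.8, removed ribosomal reads, aligned them with STAR 2.5.3a and estimated abundance with RSEM 1.2.31, per the methods and the submitters' processing notes, which name both GRCm38 and mm9 as builds. Expected counts deposited by the authors are not normalized, and 4.85% are not whole because reads that fit several transcripts are divided. TPM deposited by the authors are divided by transcript length and scaled to the library. The HTSeq counts named in the methods were not used here, and the methods name no test for RNA-seq differences. The methods and the labels name different kits.

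After rounding, the counts of all 16 libraries entered a single model with 4 group means, fitted by the quasi-likelihood method of edgeR 4.0.16 (R 4.3.3) with TMM scaling. The 15808 genes that exceeded 1 CPM somewhere, in 1 library or more, were tested, as in the filter of the methods. A call means an adjusted p under 0.05 (Benjamini-Hochberg over all tested genes in each of 6 comparisons). The biological coefficient of variation was 6.06%, and intervals are 95% intervals of the fit. Log2 CPM used a prior count of 2. No library repeats another of its group (chi-square over degrees of freedom 3.18 to 11.3 in 24 pairs). Scripts were tested on simulated data. Positions come from GENCODE M21 (GRCm38), symbols from a table that named 55141 of 55401 identifiers, and upstream sequences from RefSeq.

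The members and the 11 gene lists and 11 marker lists were chosen with earlier results of these data known. Named were the 10 members in every comparison, up to 4 called genes of each list with the smallest p (else the single smallest), Asic1, and the 5 genes most like Hsph1 by Pearson's r, with and without group means. Alternatives were no filter, edgeR's filterByExpr, DESeq2 size factors, library totals only, DESeq2 1.42.0, limma-voom (limma 3.58.1), log2(TPM + 1) and log2(TPM + 0.1) with limma, unrounded counts, separate fits of the 8 libraries in a comparison, replicate number as a block, summed Hspa1a and Hspa1b, an adjusted p under 0.01, and each library left out in turn. A fit without the 2 libraries that stood out in meningeal markers was chosen after seeing the data.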

Additional observations from a re-analysis of the deposited data

Results flagged for a closer look

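Among the 40 groups of 4 libraries tested (10 genes in 4 groups), 1 held a library whose gap to the others was large for the range of its group. Hspa4l was at 276.6 CPM in WT ZT13 replicate 2, the lowest of the 4, and at 279.4 to 279.8 CPM in the other WT ZT13 libraries, a gap of 0.875 of the whole range, above the 95% critical value of Dixon's test for 4 values. The gap is small in CPM and was flagged because the other libraries lay close together. WT ZT13 replicate 4, at 14.1 CPM for Hspa1b against 5.43 to 7.73 CPM in its group, was not flagged. Chance alone flags about 1 in 20 groups, so 1 flag among 40 is not more than chance gives.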

How the results depend on the processing

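The 10 genes gave 20 called values (7 in ASIC1a-/- mice, 6 in WT mice and 7 averaged over genotypes), and over 593 alternatives of these every one kept its direction, while 38 lost the call. In ASIC1a-/- mice the number of genes called at ZT13 against ZT1 was 4 instead of 7 on the log2(TPM + 1) and on the log2(TPM + 0.1) scale, where Hsph1, Hsp90ab1 and Hspa4l did not pass, and 5 to 7 when single libraries were left out. In WT mice it was 5 or 6 over all alternatives, and averaged over genotypes 7 in each. Between genotypes at ZT13, at ZT1 and in the interaction it was 0 under each alternative. Of the losses, 26 concern Hspa4l and 8 Dnajb1 in ASIC1a-/- mice. They include losses under an adjusted p of 0.01, which changes only the threshold. Over all alternatives, with calls kept or lost, the adjusted p of Hspa4l was 0.0168 to 0.213 in ASIC1a-/- and 0.0116 to 0.104 in WT mice. That of Dnajb1 was 0.00413 to 0.117 in ASIC1a-/- mice. The replicate numbers did not pair the mice (correlations of -0.316 to 0.217 between deviations of same-numbered libraries, with 5 of 16 libraries closest to their own number). With the replicate number as a block, 6 genes were called in ASIC1a-/- mice and 5 in WT mice, the lost gene being Hspa4l in both.

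Signs changed only for values that were not called. With scaling to the library total only, the sign changed in ASIC1a-/- against WT mice at ZT13 Hspa4l (0.0041) and Hsp90ab1 (0.0026), and in the interaction Hspa8 (0.0078) and Hsph1 (0.0030). On the log2(TPM + 1) scale, the sign changed in ASIC1a-/- against WT mice at ZT13 Hspa4l (0.0097), Hsp90aa1 (-0.0064), Hsp90ab1 (0.0046) and Hspd1 (0.0027), and in ASIC1a-/- against WT mice at ZT1 Hspa1a (-0.0050), Hsp90ab1 (-0.017) and Hspd1 (-0.020), and in the interaction Hspa8 (0.031), Hsph1 (0.052), Hsp90ab1 (0.021) and Hspd1 (0.023). On the log2(TPM + 0.1) scale, the sign changed in ASIC1a-/- against WT mice at ZT13 Hspa4l (0.0098), Hsp90aa1 (-0.0064), Hsp90ab1 (0.0046) and Hspd1 (0.0027), and in ASIC1a-/- against WT mice at ZT1 Hspa1a (-0.0075), Hsp90ab1 (-0.017) and Hspd1 (-0.020), and in the interaction Hspa8 (0.031), Hsph1 (0.052), Hsp90ab1 (0.022) and Hspd1 (0.023). With the 8 libraries of the comparison fitted alone, the sign changed in ASIC1a-/- against WT mice at ZT13 Hspa4l (0.0003). When single libraries were left out, the sign turned for these, with the range over the 16 omissions: in ASIC1a-/- against WT mice at ZT1 Hspa4l (-0.028 to 0.018), Hsp90aa1 (-0.047 to 0.014), Hsp90ab1 (-0.0030 to 0.020), Hspd1 (-0.026 to 0.030), Hsph1 (-0.038 to 0.022), Hspa8 (-0.0054 to 0.044) and Hspa1a (-0.076 to 0.15), in the interaction Hspa4l (-0.020 to 0.026), Hsp90aa1 (-0.015 to 0.049), Hspa8 (-0.025 to 0.031), Hsph1 (-0.042 to 0.037), Hspd1 (-0.038 to 0.018), Hsp90ab1 (-0.027 to 0.0007) and Hspa1a (-0.31 to 0.051), in ZT13 against ZT1 in ASIC1a-/- mice Hspa1b (-0.41 to 0.11) and Hspa1a (-0.066 to 0.16), in ASIC1a-/- against WT mice at ZT13 Hspa4l (-0.022 to 0.018), Hsp90aa1 (-0.031 to 0.019), Hspa1a (-0.27 to 0.091), Hspa1b (-0.56 to 0.15), Hsph1 (-0.044 to 0.025), Hsp90ab1 (-0.018 to 0.011) and Hspd1 (-0.026 to 0.0093), in ZT13 against ZT1 in WT mice Hspa1a (-0.0028 to 0.35). Without the 2 libraries high in meningeal markers, Hspa1a was at -0.17 and Hspa1b at -0.51 for ZT13 against ZT1 in ASIC1a-/- mice, and the interaction was -0.42 for Hspa1a. The cause was not tested. Hspa1a and Hspa1b hold 160 to 761 counts per library, and 4 mice per group limit all values.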
